A study of Mus musculus with 6 samples.

Results

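The MyD88 and NF-kB signalling cascade was read as 42 listed genes that run from the adaptors at Toll-like and interleukin-1 family receptors to the Rel transcription factors and their inhibitors. A member was any probe of the array whose platform annotation gave one of these symbols, and each gene was read through its brightest probe above the detection level. Of the 42 genes, 36 had a probe carrying their symbol alone and 35 were tested, out of 9173 genes tested and 19057 with a probe in the whole series. Card9, the adaptor of C-type lectin receptors, reached the detection level, 6.9 on the log2 scale, in 1 mouse and was not tested, with log2 signals of 7.10, 6.64 and 6.79 in TLR7tg mice, against 6.50, 6.50 and 6.66 in B6 mice. Irak4, Traf3, Chuk, Ripk1, Ripk2 and Nfkb1 had no such probe and were not analysed here.

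Splenic cells of 3 TLR7tg mice, which carry a Tlr7 transgene and are used as a model of systemic lupus erythematosus, were compared with those of 3 wild-type B6 (C57BL/6) mice. The study named NK1.1+ cells for both groups, and the labels of single samples name NK1.1+ cells for TLR7tg mice and NK cells for B6 mice. NK1.1, a lectin-like surface receptor, is the usual handle for sorting natural killer (NK) cells from this strain. The promoter that drives the transgene, the age and sex of the mice and the way the cells were isolated are not given in the sources used here. Total RNA was measured once per mouse on an Illumina mouse BeadArray, except that 2 technical arrays were averaged for replicate 1 of each group. One label of TLR7tg replicate 1, its title, gives the mouse identifier of B6 replicate 1, against its other labels. Each signal is a log2 value as deposited and a difference is TLR7tg minus B6.

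Ligand binding by a Toll-like or interleukin-1 family receptor recruits the adaptor MyD88, which assembles IRAK kinases. These pass the signal through TRAF6 to the TAK1 kinase complex and the IKK complex. IKK phosphorylates the inhibitors that hold Rel dimers in the cytoplasm, and the released dimers switch on cytokine genes together with several genes that shut the pathway down again. NK cells use MyD88 chiefly behind the interleukin-18 and interleukin-1 receptors, and neutrophils, monocytes and macrophages use it behind many Toll-like receptors.

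Several genes of the cascade are themselves switched on by the factors at its end, so the letters at their start sites were read from RefSeq (assembly GRCm38.p6). The table held 44 windows for 33 of the 42 members, each of 300 bases, 250 before the start of transcription and 50 after. The letters were searched on both strands, overlapping matches included, for the kappa-B consensus of Rel dimers, the core of interferon regulatory factor (IRF) response elements, which reads GAAA, any 2 bases and GAAA again, and the core GAGGAA of sites of the myeloid factor PU.1. The stretches shown are 120 bases long, end at the base before the start and were picked after the values were seen. They are that of Myd88, which has an IRF response element core, and those of 3 members that did not pass the test and have a kappa-B match. Each is written in the direction of its gene, and capitals mark the match.
Myd88, chr9:119340019-119340138, minus strand: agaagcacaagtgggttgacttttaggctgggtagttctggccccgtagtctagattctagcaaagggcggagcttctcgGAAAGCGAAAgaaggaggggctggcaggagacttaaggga
Nfkb2, chr19:46304617-46304736, plus strand: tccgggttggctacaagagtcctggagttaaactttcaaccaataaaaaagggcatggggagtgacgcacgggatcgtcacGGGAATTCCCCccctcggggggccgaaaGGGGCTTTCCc
Nfkbia, chr12:55492648-55492767, minus strand: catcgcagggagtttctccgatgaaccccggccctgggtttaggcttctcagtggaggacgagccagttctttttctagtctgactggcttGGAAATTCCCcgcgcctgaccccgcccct
Tnip1, chr11:54962941-54963060, minus strand: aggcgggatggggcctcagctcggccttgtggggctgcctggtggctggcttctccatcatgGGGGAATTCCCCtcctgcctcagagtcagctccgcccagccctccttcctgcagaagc
The match of Myd88, the common adaptor, begins 40 bases before the start. Nfkb2, which encodes the p100 precursor of a Rel family subunit, has overlapping matches on both strands 39 and 38 bases before the start and another at 11. Nfkbia, which encodes the inhibitor IkB-alpha, has a match on the reverse strand 29 bases before the start. Tnip1, which encodes a partner of the ubiquitin editor TNFAIP3, has overlapping matches at 58, 57 and 56 bases.

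A kappa-B match lay in 15 of the 44 member windows (34.1%), against 8.46% of the 32851 windows of all genes. By gene, 12 of the 33 members with a window had a match. Windows of a gene can overlap and share a match, as those of Irak1 do. The IRF core lay in 2 member windows (4.55%), against 3.44% of all windows, and the PU.1 core in 14 (31.8%), against 28.3%. Matches are strings of letters in a window and do not show that a factor binds there.

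Of the 35 tested members, 6 were higher in TLR7tg mice and none was lower by limma, at a threshold of 0.05 on p-values adjusted over all probes, and 29 did not pass. The members that rose were Irak3, Nfkbiz, Ticam2, Map3k8, Pik3ap1 and Myd88. Over all tested genes the same rule called 7.74% higher, 6.97% lower and 14.7% in either direction, and among the members it called 17.1% higher. At an unadjusted limma p under 0.05 the count was 8 of 35 higher and 0 lower. Of all 9173 tested genes 2544 reached that level in either direction, 1372 of them lower. The members' median difference was 0.11, against -0.06 over all genes, and 21 of 35 differences were positive (60.0%), against 42.7% of all genes. The groups did not overlap in 10 members (28.6%), 9 of them higher and 1 lower in TLR7tg mice. Over all genes 14.1% lay apart in the first direction, 18.5% in the second and 32.7% in either.

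**Figure D1:**
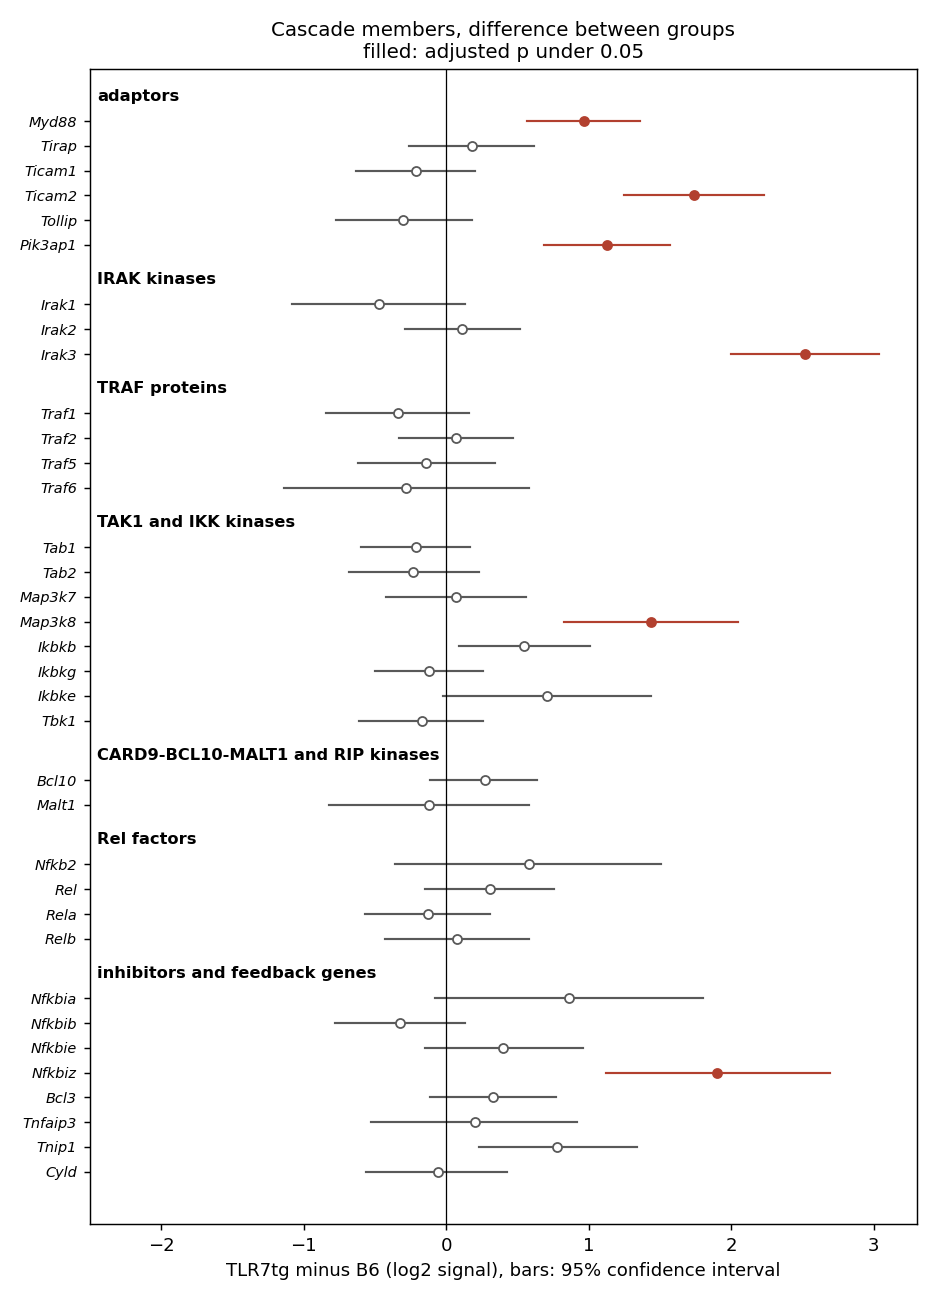
Difference in log2 signal, TLR7tg minus B6, of the 35 tested members (circles) with 95% confidence intervals (bars), grouped by role, 3 mice per group. Filled circles passed the test, and the 6 of them lie in 4 of the 7 roles, from Myd88 at 0.97 to Irak3 at 2.52.

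Of the 6 adaptors, 3 rose in TLR7tg mice, and their median difference was 0.57. Myd88, the adaptor shared by most of these receptors, had log2 signals of 11.94, 12.27 and 12.11 in TLR7tg mice, against 11.10, 11.05 and 11.27 in B6 mice. Every TLR7tg mouse lay above every B6 mouse. The means were 12.11 ± 0.17 in TLR7tg mice and 11.14 ± 0.11 in B6 mice (SD, n = 3 each), 0.97 apart (SE 0.17, 95% confidence interval 0.57 to 1.36, limma adjusted p = 0.00674), or 1.95-fold. A second, dimmer Myd88 probe gave 1.12, with overlapping groups and a limma adjusted p of 0.130.

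Ticam2 encodes TRAM, the sorting adaptor that couples Toll-like receptor 4 to its endosomal pathway. Its signals were 8.90, 9.10 and 9.22 in TLR7tg mice, against 7.04, 7.22 and 7.74 in B6 mice, so that the groups lay apart by over a log2 unit. The difference was 1.74 (SE 0.22, 95% confidence interval 1.25 to 2.23, limma adjusted p = 0.00131), or 3.34-fold. Pik3ap1 encodes BCAP, an adaptor that links Toll-like and antigen receptors to phosphoinositide 3-kinase. It had signals of 12.60, 12.59 and 12.27 in TLR7tg mice, against 11.55, 11.42 and 11.09 in B6 mice, also without overlap. Pik3ap1 rose by 1.13 (SE 0.19, limma adjusted p = 0.00551), and a second probe rose by 1.19 (limma adjusted p = 0.0231). The other 3 adaptors did not pass. Tirap, the bridging adaptor beside MyD88, differed by 0.18, and its 4 probes gave 0.08 to 0.20. Ticam1, which encodes TRIF, differed by -0.21. Tollip, which encodes a ubiquitin-binding dampener of receptor signalling, differed by -0.30, and its other probe above the detection level gave 0.06.

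Among the 3 IRAK family members tested, Irak3 had the largest difference of all 35 members. It encodes IRAK-M, which has no kinase activity, restrains the IRAK complex and is best known from monocytes and macrophages. The signals of Irak3 were 9.78, 9.66 and 10.06 in TLR7tg mice, against 7.44, 6.88 and 7.62 in B6 mice. The lowest TLR7tg mouse exceeded the highest B6 mouse by about 2 log2 units, and B6 replicate 2 was below the detection level. The difference was 2.52 (SE 0.23, 95% confidence interval 2.0 to 3.04, limma adjusted p = 0.000354), or 5.74-fold on the deposited scale. Neither of the other family members tested passed. Irak2 differed by 0.11. Irak1, the kinase that binds TRAF6, had signals of 9.83, 8.83 and 8.99 in TLR7tg mice, against 9.90, 9.53 and 9.65 in B6 mice. Irak1 differed by -0.47 (limma adjusted p = 0.328), its replicate 1 values were the highest in both groups, and without TLR7tg replicate 1 it passed as lower at -0.78 (limma adjusted p = 0.0341). Its dimmer probes gave 0.12 and -0.26 with all mice in. The lower call was read from the brightest probe alone and was reached only with TLR7tg replicate 1 left out.

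**Figure D2:**
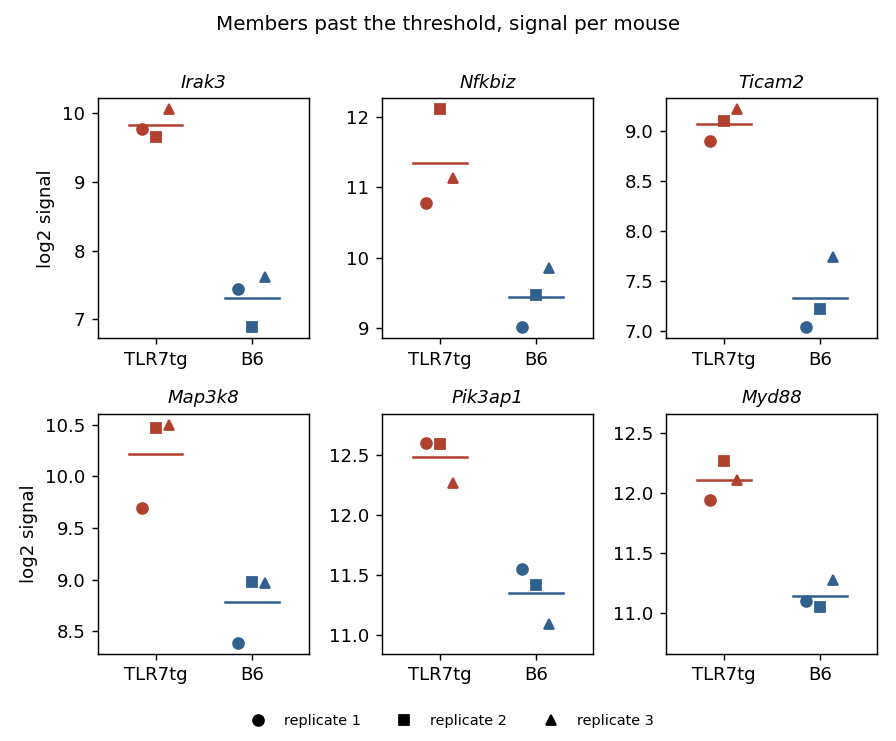
Log2 signal in each mouse (points, shape by replicate) and group mean (line) of the 6 members past the threshold, with TLR7tg left of B6 in each panel and axes that do not start at 0. In all 6 panels the 3 TLR7tg points lie above the 3 B6 points, with the widest gap in Irak3.

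No TRAF gene passed by limma, and none of the 4 had an unadjusted p under 0.05. Traf6, the ubiquitin ligase that carries the MyD88 signal onward, had signals of 8.26, 9.80 and 9.15 in TLR7tg mice, against 8.82, 9.70 and 9.53 in B6 mice. The groups overlapped fully, and replicate 1 was the lowest mouse of both. The difference was -0.28 (SE 0.38, 95% confidence interval -1.14 to 0.58, limma adjusted p = 0.744), and 2 dimmer probes gave -0.12 and 0.20. Traf1, Traf2 and Traf5, which act mainly behind receptors of the tumour necrosis factor family, differed by -0.34, 0.07 and -0.14. With Traf6 they gave a median of -0.21.

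Of the 8 tested kinase genes around TAK1 and IKK, 1 rose. Map3k8 encodes TPL2, the kinase that IKK releases from p105 and that feeds the ERK pathway. Its signals were 9.69, 10.47 and 10.50 in TLR7tg mice, against 8.39, 8.98 and 8.97 in B6 mice. The groups did not overlap, and replicate 1 was the lowest mouse in each. The difference was 1.44 (SE 0.27, 95% confidence interval 0.83 to 2.05, limma adjusted p = 0.00794), or 2.72-fold.

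The other 7 kinase genes did not pass. The TAK1 kinase gene Map3k7 differed by 0.07, and the genes of its binding partners, Tab1 and Tab2, by -0.21 and -0.23. By the brightest probes, Tab1 was the 1 member whose TLR7tg mice (8.98, 9.06 and 8.90) all lay below its B6 mice (9.11, 9.09 and 9.38). Its closest mice were 9.06 in TLR7tg and 9.09 in B6. A dimmer Tab1 probe (-0.40) lay apart in the same direction, and another (-0.18) overlapped. Dimmer probes of Traf1 and Ikbkg (-0.34 each) also lay apart as lower, and none of these passed by limma. Ikbkg, the regulatory subunit NEMO, differed by -0.12, and Tbk1, the kinase of interferon regulatory factors, by -0.17. The catalytic subunit gene Ikbkb had signals of 9.14, 8.66 and 8.53 in TLR7tg mice, against 8.29, 8.08 and 8.32 in B6 mice. These did not overlap, yet the difference of 0.55 (95% confidence interval 0.09 to 1.01) missed the threshold (limma adjusted p = 0.125). It passed with the slide as a block (limma adjusted p = 0.0432) and with mice of neighbouring identifiers blocked (limma adjusted p = 0.0478). The slide block only sets replicate 1 of each group apart from the other 4 mice, whose slides the labels do not name. Ikbke, a kinase close to TBK1, had signals of 8.21, 8.62 and 9.62 in TLR7tg mice, against 7.93, 8.15 and 8.24 in B6 mice, and replicate 3 set its TLR7tg mean apart. Ikbke differed by 0.71 (limma adjusted p = 0.213), and by 1.01 without TLR7tg replicate 1 (limma adjusted p = 0.0418). Bcl10 and Malt1, which form the scaffold between CARD proteins and IKK, differed by 0.27 and -0.12, and neither passed.

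The 4 Rel family genes tested did not pass by limma, and none had an unadjusted p under 0.05. Rela, which encodes the p65 subunit, had signals of 10.78, 10.98 and 10.75 in TLR7tg mice, against 11.25, 10.69 and 10.97 in B6 mice. The mice of both groups were interspersed, with a difference of -0.13 and a 95% confidence interval of -0.57 to 0.31, which leaves out a change of a whole log2 unit. Rel and Relb, the c-Rel and RelB subunits, differed by 0.31 and 0.08. Nfkb2 had signals of 7.43, 8.81 and 8.85 in TLR7tg mice, against 7.13, 8.0 and 8.23 in B6 mice. Each TLR7tg replicate of Nfkb2 lay above the B6 replicate of the same number, although the numbers are names only, and replicate 1 was far below the rest in both groups. Its difference of 0.58 missed the threshold (95% confidence interval -0.36 to 1.51, limma adjusted p = 0.458). With the slide or the identifiers as a block it passed (limma adjusted p = 0.0316 and 0.0322), and without TLR7tg replicate 1 it was 1.04 (limma adjusted p = 0.0480).

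Of the 8 genes for inhibitors of Rel factors or enzymes that end the signal, 1 rose. Nfkbiz encodes IkB-zeta, an inducible nuclear member of the family that binds NF-kB at a subset of cytokine genes and is needed for their expression. It had signals of 10.78, 12.11 and 11.14 in TLR7tg mice, against 9.01, 9.47 and 9.85 in B6 mice, with no overlap but a wide spread within each group. The means of Nfkbiz were 11.35 ± 0.69 in TLR7tg mice and 9.44 ± 0.42 in B6 mice (SD, n = 3 each), 1.90 apart (SE 0.35, limma adjusted p = 0.00726) and 3.74-fold higher in TLR7tg mice. Without a filter on dim probes, which raises the number of tests, it missed the threshold (limma adjusted p = 0.0549, from 0.0011 to 0.0549 over its alternatives).

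Nfkbia, which encodes IkB-alpha, the inhibitor that NF-kB itself switches on early, had signals of 11.30, 9.61 and 10.56 in TLR7tg mice, against 10.24, 9.37 and 9.29 in B6 mice. TLR7tg replicate 2 fell inside the B6 range. The difference was 0.86 (SE 0.41, 95% confidence interval -0.08 to 1.80) and did not pass (limma adjusted p = 0.240). It passed with the slide or the identifiers as a block (limma adjusted p = 0.0345 and 0.0217), and a dimmer probe gave 0.32. Tnip1 came closest to the threshold without passing, with signals of 11.37, 10.78 and 11.74 in TLR7tg mice, against 10.63, 10.47 and 10.46 in B6 mice. Its groups did not overlap, and its difference was 0.78 (95% confidence interval 0.23 to 1.34, limma adjusted p = 0.0709). A second Tnip1 probe rose by 1.07 (limma adjusted p = 0.0384), and another differed by 0.50 (limma adjusted p = 0.161). The brightest probe passed with the slide as a block (limma adjusted p = 0.0454), with the identifiers as a block (limma adjusted p = 0.0244), with array weights (limma adjusted p = 0.0273) and without TLR7tg replicate 2 (limma adjusted p = 0.0193). The mean of the kept Tnip1 probes, the second included, passed too (limma adjusted p = 0.0284).

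Tnfaip3, the gene of the ubiquitin editor A20, had signals of 8.92, 9.42 and 10.01 in TLR7tg mice, against 8.76, 9.73 and 9.29 in B6 mice. These overlapped, with a difference of 0.20 (limma adjusted p = 0.796). Nfkbib and Nfkbie, which encode 2 more cytoplasmic inhibitors, differed by -0.32 and 0.40. Bcl3, a nuclear relative of the inhibitors, differed by 0.33, and Cyld, a deubiquitinase that opposes TRAF signalling, by -0.06.

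**Figure D3:**
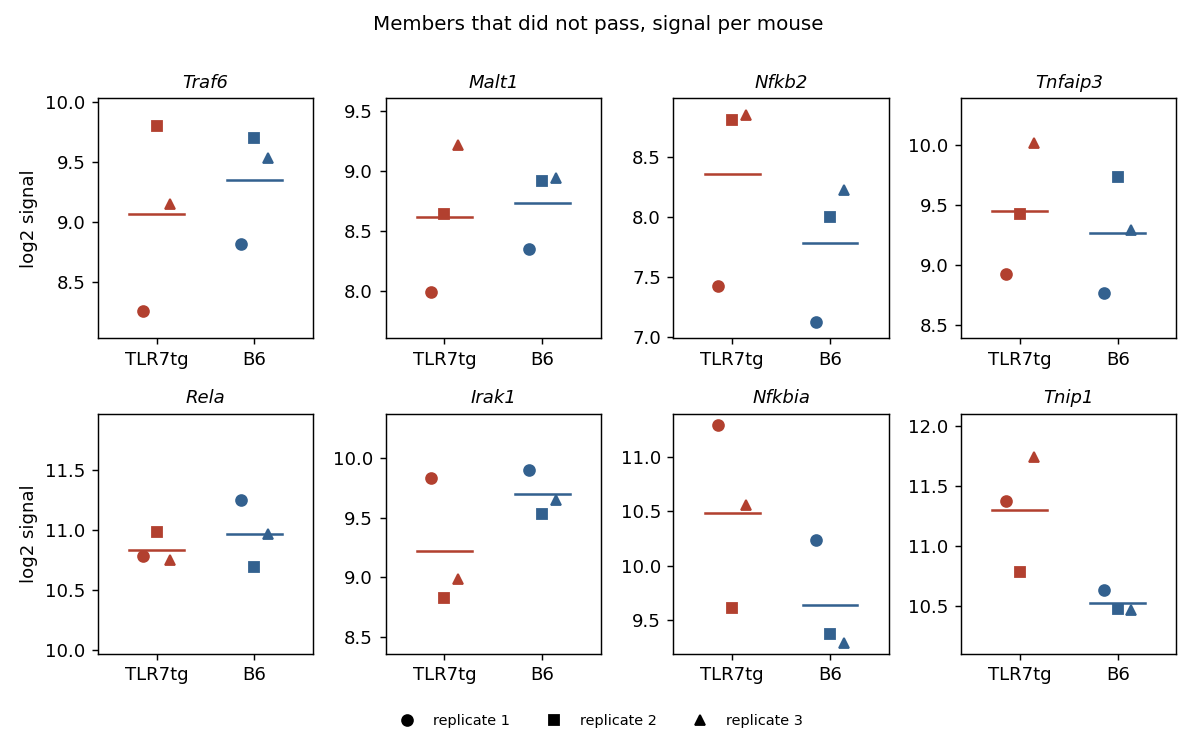
Log2 signal in each mouse (points, shape by replicate) and group mean (line) of 8 members that did not pass, with TLR7tg left of B6 in each panel and axes that do not start at 0. Replicate 1 is lowest in both groups for Traf6, Malt1, Nfkb2 and Tnfaip3, and highest in both for Irak1 and Nfkbia, whose mean differences were -0.47 and 0.86.

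Of the 29 members that did not pass, 24 differed by under 0.5 log2 units in size, and the range was -0.47 to 0.86. For 22 of them the 95% confidence interval stayed within 1 log2 unit of 0, that is within a change of 2-fold either way. The intervals of Irak1, Traf6, Ikbkb, Ikbke, Nfkb2, Nfkbia and Tnip1 reached further, so a change of 2-fold in these was not shown and not excluded by the interval. Of the 16 members with more than 1 probe above the detection level, the probes differed in sign in Bcl10, Irak1, Tollip and Traf6, and none of these was among the 6 that rose.

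The labels name 1 slide, which held the arrays of replicate 1 of each group. Between those 2 mice the differences were 2.34 for Irak3, 1.78 for Nfkbiz, 1.87 for Ticam2, 1.30 for Map3k8, 1.05 for Pik3ap1 and 0.83 for Myd88. Among the other 4 mice they were 2.61, 1.97, 1.68, 1.51, 1.17 and 1.03 in the same order. All 6 passed in the other 4 mice alone, with limma adjusted p-values from 0.000475 for Irak3 to 0.0125 for Myd88, and no member was lower. They also passed when each mouse was left out in turn. Some members that did not pass gave unlike values in the 2 sets of mice. Ikbke gave 0.28 on the slide and 0.92 in the other mice, and Irak1 gave -0.06 and -0.68. Replicate 1 was the lowest mouse of both groups in 10 of the 35 members, where that held in 28.8% of all genes, and the highest of both in 8, where it held in 19.5% of all genes.

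**Figure D4:**
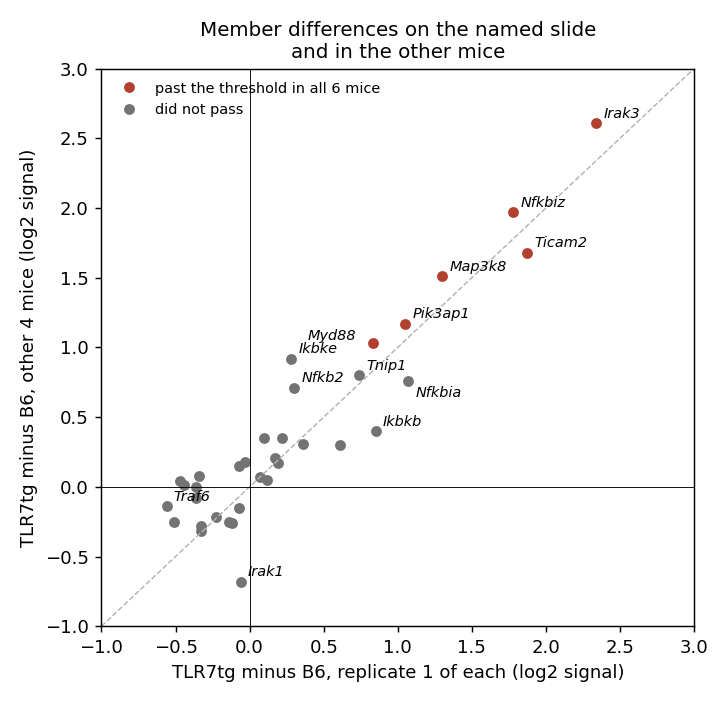
Difference TLR7tg minus B6 in log2 signal between replicate 1 of each group, on the named slide (x axis) and among the other 4 mice (y axis), 1 point per member, with the line of equality dashed. The 6 members past the threshold (red) lie near the line, from 0.83 and 1.03 for Myd88 to 2.34 and 2.61 for Irak3.

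The scanner signals of those 2 mice were also deposited, as 2 arrays per mouse before normalisation. All 35 tested members were detected on all 4 arrays. The TLR7tg arrays were brighter, by a median of 0.73 log2 units over all probes kept. Relative to that shift, Irak3 was higher by 3.48, Ticam2 by 3.27, Nfkbiz by 2.25, Map3k8 by 1.83, Pik3ap1 by 1.42 and Myd88 by 1.25 in TLR7tg replicate 1 than in B6 replicate 1. Each of these exceeds the deposited difference of the same pair of mice. The same held for the members that did not pass, except Ticam1, Traf5, Map3k7 and Nfkbib. Rela, for example, was -0.47 on the deposited scale and 0.04 here, so the excess was not particular to the members that rose. Traf6 stood at -0.51, Rela at 0.04 and Nfkbia at 1.50 by the same measure, which compares 1 mouse with 1 mouse and has no replicate check. The technical arrays of a member lay 0.30 to 0.82 apart in the TLR7tg mouse (median 0.47) and 0.00 to 0.35 in the B6 mouse (median 0.12).

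The 11 tested members with a kappa-B match near the start held none of the 6 that rose. Of the 11 differences 9 were positive, with a median of 0.31 and a range of -0.47 to 0.86. Of 17 tested members with a window and no match, 3 rose (Myd88, Pik3ap1 and Irak3) and the median was -0.13. The other 3 that rose, Ticam2, Map3k8 and Nfkbiz, were among 7 tested members without a window. Of the 3 that rose and have a window, 2 hold a PU.1 core and 1, Myd88, an IRF core. With so few members these are descriptions, and no test was made of them.

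The receptors that feed the cascade were read beside its members. Of 17 tested receptor genes, 11 rose and 3 fell (82.4% in either direction, against 14.7% of all genes), with a median of 1.05. Among the 11, Il1r2 lay below the detection level in every B6 mouse (6.50, 6.55 and 6.55) and entered the test through TLR7tg mice alone. Tlr7, the transgene itself and a sensor of single-stranded RNA, averaged 13.80 ± 0.71 in TLR7tg mice and 9.13 ± 0.57 in B6 mice (SD, n = 3 each), a difference of 4.67 (limma adjusted p = 0.000248). Tlr13, the mouse receptor for bacterial ribosomal RNA, rose by 2.69 (limma adjusted p = 0.00123). Both chains of the interleukin-18 receptor, a receptor behind which NK cells use MyD88, fell, Il18r1 by 3.20 and Il18rap by 2.41 (limma adjusted p = 0.000224 and 0.000326). The difference between the share of receptors and the share of members that moved was not tested.

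Beside the cascade, 17 further regulators were tested, of which 4 rose and 1 fell (29.4%, against 14.7% of all genes), with a median of -0.07. Btk, a kinase that acts in Toll-like and B cell receptor signalling, rose by 1.66 (limma adjusted p = 0.000764), and Otud7b, a deubiquitinase, fell by 1.05 (limma adjusted p = 0.00338). Usp18, which restrains interferon signalling, rose by 1.0 (limma adjusted p = 0.0343) and Tnip2, a relative of Tnip1, by 0.81 (limma adjusted p = 0.0494). The last 2 calls were fragile. Usp18 lost its call without any one mouse other than TLR7tg replicate 1 (limma adjusted p 0.0708 to 0.102) and Tnip2 without any one of the 6 mice (limma adjusted p 0.0535 to 0.165).

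In the MAP kinase arm, which branches off at TAK1 and TPL2, 2 of 16 tested genes rose and 1 fell. That is 18.8%, close to the 14.7% of all genes called in either direction. Mapkapk2, the kinase downstream of p38 that stabilises cytokine messages, rose by 1.21 (limma adjusted p = 0.00748), and Jun, an AP-1 subunit, by 0.81 (limma adjusted p = 0.0265). Dusp2, a phosphatase of MAP kinases, fell by 1.06 (limma adjusted p = 0.0106). Of 6 IRF arm genes, Irf5, which MyD88 engages directly, rose by 1.63 (limma adjusted p = 0.0139) and Irf7, the factor of type I interferon induction, by 1.22 (limma adjusted p = 0.0196), 33.3% in all. Jun lost its call without TLR7tg replicate 2 or 3 or B6 replicate 1 or 3 (limma adjusted p 0.0748 to 0.101). Irf5 lost it without TLR7tg replicate 2 or B6 replicate 2 (0.0516 to 0.0572), Irf7 without B6 replicate 2 or 3 (0.0589 to 0.0815) and Dusp2 without B6 replicate 2 (0.0504).

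The list of NF-kB targets was drawn up with earlier results of these data known. Of its 29 tested genes, 12 rose and 3 fell (51.7%, against 14.7% of all genes), with a median of 0.83. Among the 12, Il10 and Saa3 lay below the detection level in every B6 mouse and entered the test through TLR7tg mice alone. Il1b, the gene of interleukin-1 beta, averaged 11.45 ± 0.35 in TLR7tg mice and 8.38 ± 0.85 in B6 mice (SD, n = 3 each) and rose by 3.07 (limma adjusted p = 0.00131). Lcn2, an iron-binding protein of neutrophil granules and therefore also a marker of those cells, rose by 4.55 (limma adjusted p = 0.0175), with an SD of 2.52 in TLR7tg mice. Its call was lost without TLR7tg replicate 2 or B6 replicate 2 or 3 (limma adjusted p 0.0536 to 0.0801). Cxcl9, an interferon-induced chemokine, rose by 2.59 (limma adjusted p = 0.00874). Ccl5, a chemokine that NK cells store, fell by 3.20 (limma adjusted p = 0.00288). Among the 12 are Bcl2a1b and Bcl2a1d, near-identical copies whose probes may not tell them apart. Without a filter on dim probes the calls of Usp18 (limma adjusted p = 0.120), Tnip2 (0.129), Jun (0.0516), Irf5 (0.0841), Irf7 (0.0868), Lcn2 (0.129) and Cxcl9 (0.0738) were lost.

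**Figure D5:**
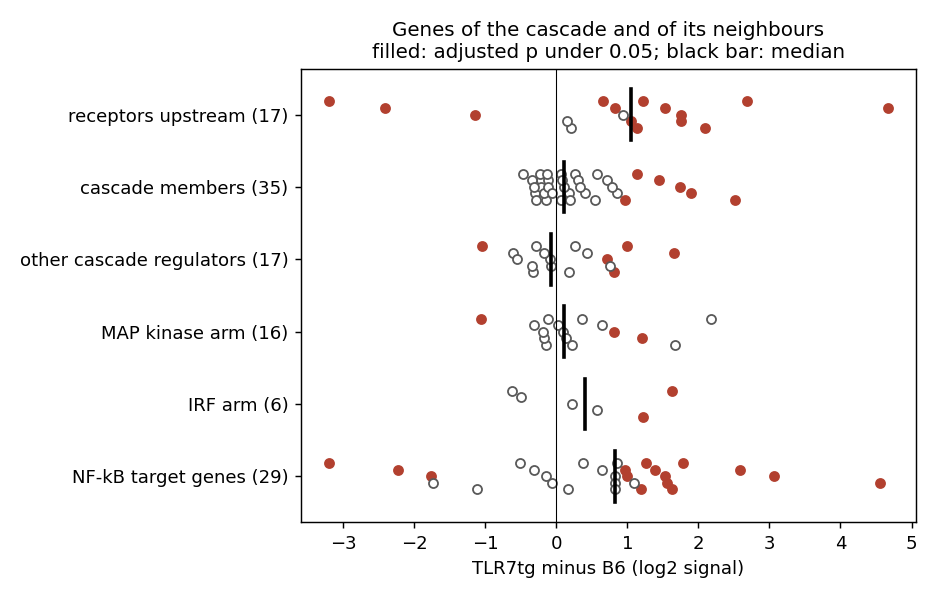
Difference TLR7tg minus B6 in log2 signal of each tested gene (circles) in the cascade and in 5 neighbouring lists, with the number tested in brackets, 3 mice per group. Filled circles passed the test and black bars are medians, which lie at 1.05 for the receptors, 0.11 for the cascade members and 0.83 for the NF-kB targets.

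Markers of other cells differed between the same samples. The mean log2 signal of 13 NK cell markers was 7.65, 7.74 and 8.86 in TLR7tg mice, against 11.53, 11.45 and 11.59 in B6 mice, and all 13 fell. Among the 13, the brightest probes of Ncr1 (6.58, 6.59 and 6.53) and Eomes (6.69, 6.65 and 6.72) were below the detection level in every TLR7tg mouse. Klrb1c, which encodes NK1.1, had 7.08, 7.41 and 7.92 in TLR7tg mice, against 8.96, 9.93 and 10.02 in B6 mice. In the mice labelled NK1.1+ the gene of that receptor was thus below its level in every B6 mouse. Of 11 neutrophil markers 10 rose, with means of 10.96, 11.64 and 8.47 in TLR7tg mice, against 7.46, 7.29 and 6.84 in B6 mice. Of 16 monocyte and macrophage markers 9 rose and 3 fell, with means of 10.18, 10.26 and 10.50 in TLR7tg mice, against 8.87, 9.63 and 9.74 in B6 mice. The 3 that fell were Vcam1 (-2.23), Mertk (-1.31) and Slc40a1 (-2.10), and Vcam1 is also counted among the NF-kB targets that fell. The mean of each of these 3 lists did not overlap between the groups, while single markers did so in 1 of 11 neutrophil genes (Mmp9) and 2 of 16 monocyte and macrophage genes (Ccr2 and C1qa).

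TLR7tg replicate 3 had the lowest neutrophil mean of its group, and the highest NK cell mean (8.86) and monocyte and macrophage mean (10.50). Of the 6 members that rose, it had the highest signals of Irak3 (10.06), Ticam2 (9.22) and Map3k8 (10.50). Its Myd88 (12.11) and Nfkbiz (11.14) signals lay between those of the other TLR7tg mice, and its Pik3ap1 signal (12.27) was the lowest. TLR7tg replicate 2, with the highest neutrophil mean, had the highest Myd88 (12.27) and Nfkbiz (12.11) signals. Without that mouse, and without each other one, the 6 members still passed. The neutrophil means of the TLR7tg mice left without it, 10.96 and 8.47, still lay above every B6 mean. Leaving out a mouse therefore cannot separate the neutrophil markers from the group. Of the defining neutrophil markers that reached the detection level in too few mice to be tested, Retnlg had 10.01, 9.93 and 6.79 in TLR7tg mice, against 6.80, 6.77 and 6.32 in B6 mice. Cxcr2 had 7.31, 7.67 and 6.75 in TLR7tg mice, against 6.75, 6.70 and 6.55 in B6 mice. Both were thus above the level in TLR7tg replicates 1 and 2 alone, and Mmp8 was below it in every mouse. Erythroid markers averaged 9.12, 10.77 and 10.17 in TLR7tg mice, against 7.89, 8.24 and 8.11 in B6 mice, and 3 of 4 rose. Klf1 is among the 3, and its B6 mice (6.60, 6.70 and 6.79) all lay below the detection level. Of 7 T cell markers 3 fell, with means of 7.85, 7.73 and 7.90 in TLR7tg mice, against 8.98, 9.02 and 8.83 in B6 mice. Cd8a and Cd5 were below the detection level in every mouse and Cd4 in all but B6 replicate 2 (6.96). None of 7 dendritic cell markers and none of 6 B cell markers passed by limma, with 0 and 1 at an unadjusted p under 0.05. Of 3 platelet markers, Ppbp rose and Gp1bb fell. Ppbp had 7.21, 7.37 and 7.42 in TLR7tg mice, against 6.74, 6.63 and 6.60 in B6 mice, all below the detection level. With that level as the bound, Ppbp was at least 1.35-fold higher. Gp1bb had 6.81, 6.76 and 6.88 in TLR7tg mice, all below the detection level, against 8.57, 8.63 and 8.29 in B6 mice. By the same bound, Gp1bb was at least 3.02-fold lower. The part of these cells in the differences of the cascade members was not tested, and in bulk RNA fewer cells of a type and less RNA per cell cannot be told apart.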

How the data were processed

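Total RNA of 6 mice, 3 TLR7tg and 3 B6, was measured on an Illumina mouse BeadArray, and the groups were read from the cell line entry of the labels. The value table holds the authors' deposited log2 values of 45281 probes. Sorted, its columns differ by at most 0.0085, as quantile normalisation leaves them, and which tool made them was not stated in the sources used here. Per the labels, replicate 1 of each group averages 2 technical arrays. A second deposited table gives a linear probe intensity and a detection p-value per array, per the file headers. Its 4 arrays named in the labels were used, and 8 columns that match no mouse were not. A log2 scale for the other 4 mice is therefore assumed, and folds hold on the deposited scale only.

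The detection level, 6.9, was set in steps of 0.1, as the lowest from which 95% of probes averaged a detection p-value under 0.05 on the named arrays of each of those mice. The 16535 probes that reached it in at least 3 mice entered a two-sided test without covariates, lmFit and eBayes of limma 3.58.1 (R 4.3.3), with Benjamini-Hochberg adjustment over these probes and a threshold of 0.05, and each gene was read through its brightest kept probe. A gene could thus enter the test through the mice of 1 group alone. The test was tried on simulated data. The deposited values have a floor, with a lowest value of 6.1 and a median of 6.72, and no background was subtracted for the main test. Log2 differences of dim genes may therefore be understated, and the number of arrays limits the precision. Symbols came from the platform annotation, which gave 1 gene for 34885 probes, several for 18 and none for 10378. Identifiers of 34807 probes matched RefSeq GRCm38.p6.

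The members and lists were chosen with earlier results of these data known. Values per mouse are given for members past the threshold and for Myd88, Traf6, Rela and Nfkbia, and for further members whose values in single mice or settings bear on their call, chosen after seeing them. From each other list the 4 genes with the largest difference past the threshold are named. Promoters were to be shown for members past the threshold with a kappa-B match, of which there were none. The 16 alternatives covered the filter, blocks for slide and identifiers, the variance model, background, centring, probe choice and each mouse left out.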

Additional observations from a re-analysis of the deposited data

How the results depend on the processing

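All alternatives were chosen with the design. The 6 members that rose kept their direction in each of the 16, and their calls too, except that Nfkbiz missed the threshold without a filter and Irak3 was not tested where detection in all 6 mice was required. The count of higher members, 6 in the report, was 10 with the slide as a block and 10 with neighbouring identifiers as a block, which added Ikbkb, Nfkb2, Nfkbia and Tnip1. The share of all genes called higher rose too under these blocks, from 7.74% to 11.1% and 12.2%. Leaving out single mice gave 6 to 8 higher and 0 to 1 lower, the 1 being Irak1 without TLR7tg replicate 1. Over all genes, 710 higher became 459 without a filter, 1118 with the identifier block and 421 to 756 with a mouse left out (421 without B6 replicate 2). The 639 lower became 1083 with the slide block, 1166 with the identifier block and 341 to 629 with a mouse left out (341 without B6 replicate 2, 411 without B6 replicate 3). Of the receptors, 14 changed, 9 without a filter and 10 to 14 with a mouse left out. Of the other regulators, 5 changed, 8 with the identifier block, 3 with background correction by normexp and 2 to 4 with a mouse left out. Of the MAP kinase and IRF arms, 5 changed, 3 without a filter, 10 with the slide block, 10 with the identifier block and 2 to 7 with a mouse left out (3 without TLR7tg replicate 2, 2 without B6 replicate 2, 3 without B6 replicate 3). Of the NF-kB targets, 15 changed, 6 without a filter, 24 with either block and 10 to 18 with a mouse left out. Without a filter more probes are tested. The cause of the other shifts was not tested. No called difference turned its sign, and among members that did not pass up to 5 changed sign, without B6 replicate 1. The labels give no replicate numbers shared between groups, and neighbouring identifiers are not stated to mark littermates. With 3 mice per group and 1 signal per mouse, differences below about the size of the confidence intervals given for each member were not detectable.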

Other observations

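Of the 42 listed members 6 could not be read on this array under a single symbol, and they include the p105 gene Nfkb1, the IKK subunit gene Chuk and the kinase gene Irak4, so each of the IKK, Rel and IRAK groups was described without one of its central genes. The spread between mice in the cascade was close to that of all genes. The median SD of the members was 0.25 in TLR7tg mice and 0.22 in B6 mice, against 0.26 and 0.21 over all genes.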
